A study of Mus musculus with 26 samples.

Results

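BD ganglion cells were set against J ganglion cells, both output neurons of the mouse retina that carry direction-selective signals. The comparison rests on 4 of the 26 arrays of the study, 2 BD and 2 J, taken by their labelled subtype. The 26 arrays profile 13 retinal neuron subtypes at postnatal day 6, with 2 biological replicates from different litters for each. A p-value here is set against the spread between such replicates pooled over all 13 subtypes, not that of BD and J alone. BD cells, labelled as having bistratified dendrites, and J cells both came from C57BL/6 mice and were both sorted as YFP+ Thy1+ cells from papain-dissociated retina, and their RNA passed 2 rounds of amplification. The gene that drives YFP in each line is not given in the sources used here. Both were also read beside the other 4 ganglion cell subtypes, all sorted as Thy1+: W3 and W7 (YFP+, C57BL/6), Isl2 (bgal+, C57BL/6) and a Cdh3 BAC subset (GFP+, Swiss Webster crosses).

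ON-OFF direction-selective ganglion cells respond to edges of light and dark that move in a preferred direction. Their dendrites lie in a pair of layers of the inner retina, where they meet the processes of starburst amacrine cells, and they are known for the peptide CART and the collagen Col25a1. J cells are OFF cells whose dendrites point to one side, and they take their name from junctional adhesion molecule B, the product of Jam2.

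Of 13951 tested genes, 45 (0.323%) were higher in BD than in J cells and 57 (0.409%) were lower, 102 in all (0.731%). Levels are log2(intensity + 16), on which an intensity of 1, the common lowest value, lies at 4.09, and values near that floor have no order. A gene was called at a difference of at least 1 log2 unit and a Benjamini-Hochberg adjusted p under 0.05 in limma, whose error is pooled over all 13 subtypes. The called differences had a median of 1.71 among the higher genes and -1.75 among the lower ones, beside a median of 0.01 over all genes. Both BD arrays lay beyond both J arrays, above or below, in 4624 genes, which is 33.1% of those tested. This held for every called gene, so such separation adds nothing to a call.

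**Figure D1:**
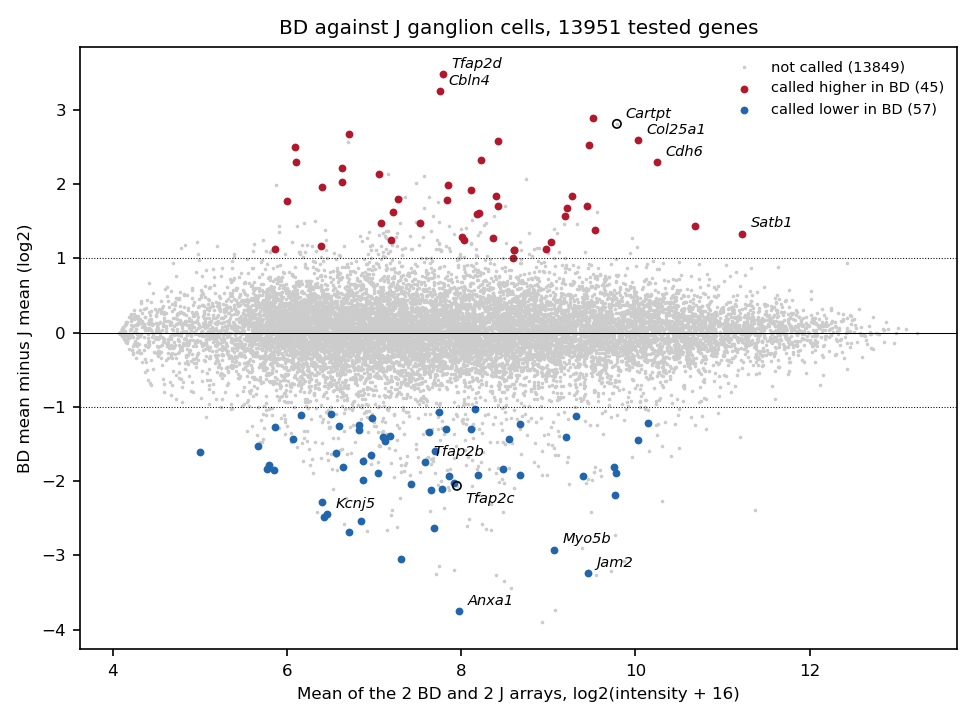
Difference between the BD mean and the J mean (vertical axis, log2) against the mean of the 4 arrays (horizontal axis, log2(intensity + 16)) for 13951 genes. Red points are the 45 genes called higher in BD, blue points the 57 called lower, grey points were not called, and dotted lines mark differences of 1. Tfap2d stands at the top at 3.48 and Anxa1 at -3.75 is the lowest called gene, while the open circles of Cartpt and Tfap2c were not called.

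BD replicate 2 stood apart from the other ganglion cell arrays, and 87 of the 102 calls were lost without it. Its correlation across the tested genes was 0.936 with its own replicate and 0.904 to 0.945 with the arrays of the other subtypes, whereas BD replicate 1 reached 0.981 with an Isl2 array. The BD replicates differed by at least 1 log2 unit in 10.7% of genes, the J replicates in 4.44%, and those of the other 4 subtypes in 0.301% to 4.86%. The pooled error thus combines BD with ganglion cell subtypes whose replicates lay closer together. Without BD replicate 2 the counts were 10 higher and 5 lower, and without BD replicate 1 they were 394 and 469, the lone BD array being assumed to vary like the other subtypes. Without J replicate 2 there were 25 higher and 21 lower genes, and 69 of the 102 calls were lost. Without J replicate 1 there were 52 higher and 73 lower, and 33 of the 102 were lost. The 4 arrays fitted alone gave no call in limma, with 738 of 11953 genes at an unadjusted p under 0.05.

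The labelled class was checked against ganglion cell markers. Of 8 tested, none was called, with a median difference of -0.12, and Pou4f3 was too dim to be tested. Thy1, the surface glycoprotein of the sort, read 11.58 and 11.58 in BD arrays, against 11.77 and 11.67 in J arrays. Slc17a6, the vesicular glutamate transporter of these cells, read 11.66 and 11.87 in BD arrays, against 11.47 and 11.98 in J arrays. Both genes were high in all 4 arrays. Over the 13951 genes the BD and J subtype means correlated at 0.966, which ranked 7 of the 15 pairs of ganglion cell subtypes from the closest.

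Some genes known from ON-OFF direction-selective cells were higher in BD. Of 8 tested members of that list, 3 were called higher and none lower, with a median difference of 1.32 and 7 members above zero. Col25a1, a membrane collagen of neurons, read 11.04 and 11.61 in BD arrays, against 8.52 and 8.95 in J arrays, a difference of 2.59 ± 0.43 (SE; limma adjusted p = 0.00613), about 6.01-fold. The BD arrays were high and the groups did not overlap; the other ganglion cell subtypes averaged between 7.94 and 9.59. Its second probe set gave -0.03 and was dimmer, with a BD mean of 5.83. Without BD replicate 2 the difference of Col25a1 was 2.30 and its adjusted p was 0.148.

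Cdh6, a cadherin of the cells that prefer vertical motion, read 10.94 and 11.84 in BD arrays, against 9.02 and 9.18 in J arrays (2.29 ± 0.36, SE; limma adjusted p = 0.00423). It was as high in the Cdh3 subset, whose mean was 11.30. Satb1, a chromatin organiser, read 11.53 and 12.25 in BD arrays, against 10.52 and 10.61 in J arrays (1.33 ± 0.27, SE; limma adjusted p = 0.0249). Both genes were separated in all 4 arrays, and Satb1 was above the mean of every other ganglion cell subtype, of which the highest was 10.73.

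Cartpt, which encodes CART, read 11.37 and 11.02 in BD arrays, against 8.84 and 7.93 in J arrays. The BD arrays were high and the groups did not overlap, and the difference was 2.81 ± 0.69 (SE) with a limma adjusted p of 0.07, so it was not called. Against the mean of the other 4 ganglion cell subtypes, BD cells were 3.62 ± 0.55 higher (SE; limma adjusted p = 0.00217) and J cells 0.82 ± 0.55 (adjusted p = 0.538). Among the other subtypes the Isl2 mean was the highest at 9.44 and the Cdh3 mean the lowest at 6.59. The remaining members, Cntn5, Mmp17, Drd4 and Cntnap4, had differences of -0.12 to 1.32 and were not called.

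**Figure D2:**
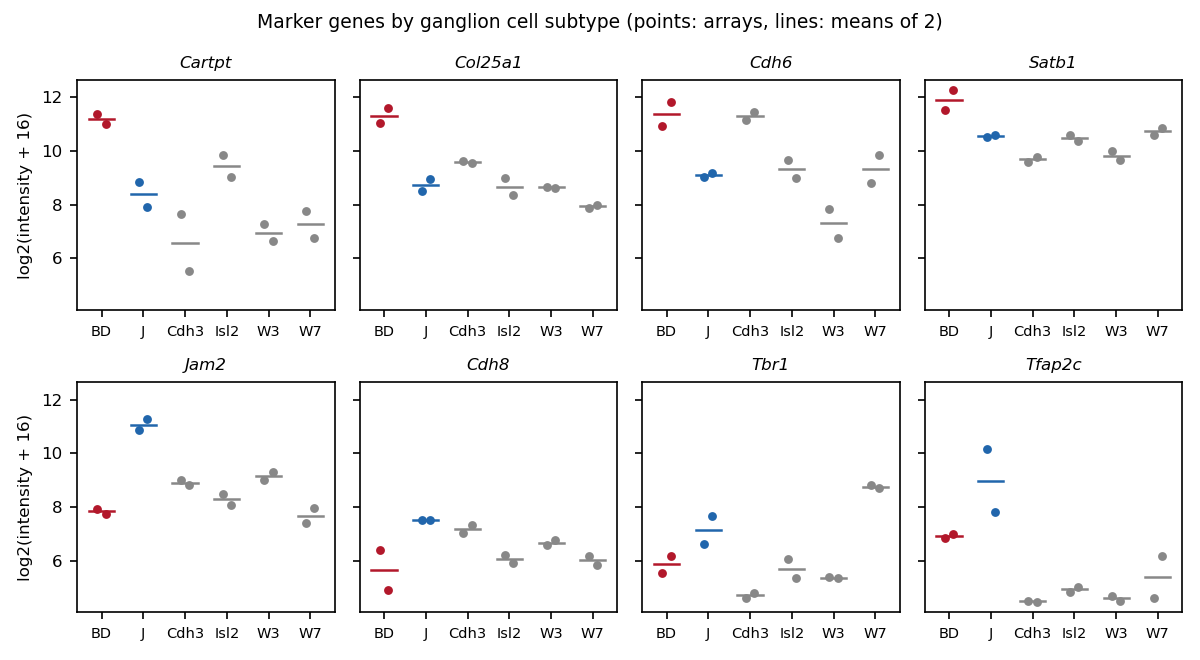
Levels of 8 marker genes (log2(intensity + 16)) on each of the 12 ganglion cell arrays, by subtype, BD in red, J in blue and the other 4 subtypes in grey. Points are arrays and lines are means of 2. Cartpt, Col25a1 and Satb1 are highest in BD, with Cartpt at 11.37 and 11.02, and Jam2 is highest in J at 10.87 and 11.27.

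The 250 bases before the start of 4 genes with high BD readings are shown: 3 markers of direction-selective cells, and Cbln4, the called gene with the largest rise after the AP-2 factor Tfap2d. They were picked for the runs of letters that are capitalised. Sequences are RefSeq promoters on GRCm38.p6, from 5′ to 3′ on the gene's strand: Col25a1 at chr3:130180595-130180844 (plus), Cartpt at chr13:99900684-99900933 (minus), Cdh6 at chr15:13173676-13173925 (minus) and Cbln4 at chr2:172043467-172043716 (minus). Capitals mark a run found in 2 copies in Col25a1, the cyclic AMP response element TGACGTCA in Cartpt, and the AP-2 family motif GCCNNNGGC in Cdh6 and Cbln4. Both motifs read the same on either strand.
Col25a1: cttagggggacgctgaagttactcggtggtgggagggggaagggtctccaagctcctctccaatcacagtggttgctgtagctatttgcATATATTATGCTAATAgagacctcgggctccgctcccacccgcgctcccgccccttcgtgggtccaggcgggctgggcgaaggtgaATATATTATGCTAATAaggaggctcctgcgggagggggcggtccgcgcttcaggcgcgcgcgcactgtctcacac
Cartpt: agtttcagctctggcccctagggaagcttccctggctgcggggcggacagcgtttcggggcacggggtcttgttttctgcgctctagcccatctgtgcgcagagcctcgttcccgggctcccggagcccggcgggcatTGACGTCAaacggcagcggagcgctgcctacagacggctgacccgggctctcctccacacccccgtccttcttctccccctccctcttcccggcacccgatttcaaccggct
Cdh6: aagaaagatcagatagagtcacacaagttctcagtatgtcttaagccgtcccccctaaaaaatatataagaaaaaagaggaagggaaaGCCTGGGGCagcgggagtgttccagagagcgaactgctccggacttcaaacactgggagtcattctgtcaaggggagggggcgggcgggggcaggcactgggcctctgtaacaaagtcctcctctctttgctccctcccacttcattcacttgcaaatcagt
Cbln4: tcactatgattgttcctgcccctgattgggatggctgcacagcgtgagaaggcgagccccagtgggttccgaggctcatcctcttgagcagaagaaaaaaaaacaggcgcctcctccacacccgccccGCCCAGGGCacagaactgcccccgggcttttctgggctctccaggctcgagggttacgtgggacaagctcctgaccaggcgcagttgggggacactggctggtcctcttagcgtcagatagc

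The repeated run of Col25a1, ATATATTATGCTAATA, is 16 bases long and begins 161 and 75 bases before the start. A run of at least that length occurs in 2 copies within the same window in 1.71% of the 11222 tested genes with a promoter. TGACGTCA begins 112 bases before the start of Cartpt and is found in 2.78% of those genes. None of the 40 higher or 44 lower genes with a promoter holds it. The AP-2 motif was held by 10 of these 40 higher genes (25%), by 11 of the 44 lower genes (25%) and by 22.8% of all 11222. Neither direction thus stood apart from the background. A gene counts where any of its listed promoters holds the feature. A match describes letters and does not show that a factor binds there.

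Calls among transcription factors of the AP-2 family went in both directions, with a single gene each way. Tfap2d, the gene with the largest rise, read 9.85 and 9.20 in BD arrays, against 6.33 and 5.77 in J arrays, a difference of 3.48 ± 0.34 (SE; limma adjusted p = 3.73e-05), about 11.1-fold. The other 4 subtypes averaged between 5.32 and 8.79, and the W7 and Isl2 arrays, at 7.87 to 8.90, were closer to BD than to J. Tfap2b, which amacrine cells use, read 6.57 and 6.86 in BD arrays, against 9.22 and 7.70 in J arrays, and was called lower (-1.75 ± 0.36, SE; limma adjusted p = 0.0269). The J replicates of Tfap2b were 1.52 apart, and the Isl2 arrays, at 7.30 and 7.45, were near J replicate 2. Tfap2d and Tfap2b are neighbours on chromosome 1, with starts 109.0 kb apart on the same strand. Tfap2c read 6.86 and 6.98 in BD arrays, against 10.16 and 7.80 in J arrays. The J arrays were above the BD arrays but far from each other, and the difference of -2.06 ± 0.54 (SE; limma adjusted p = 0.0912) was not called. Of the 5 AP-2 genes tested, 1 was higher and 1 lower, with a median of -0.92.

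The list of 6 amacrine genes holds Tfap2a and Tfap2b, so it partly restates the AP-2 values, and Tfap2b was its sole call. Its mean level was 6.55 and 6.52 in BD arrays, against 8.05 and 6.88 in J arrays, and 5.77 to 6.68 in the other ganglion cell arrays. Gad1, an enzyme of GABA synthesis, read 6.42 and 6.40 in BD arrays, against 9.03 and 7.52 in J arrays, and was not called (adjusted p = 0.081). Slc32a1, the vesicular transporter that defines inhibitory neurons, read 4.39 and 4.09 in BD arrays, against 5.41 and 4.46 in J arrays, close to the floor. The J line also labels amacrine cells, whose 2 arrays had a mean of 10.88 and 10.78 for the same list. The part of such cells in the J values was not tested.

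Cbln4, a cerebellin that organises synapses from outside the cell, read 8.64 and 10.12 in BD arrays, against 5.96 and 6.31 in J arrays (3.25 ± 0.43, SE; limma adjusted p = 0.001). Olfm3, an olfactomedin-domain glycoprotein, read 10.89 and 11.02 in BD arrays, against 7.60 and 8.54 in J arrays (2.89 ± 0.38, SE; limma adjusted p = 9.92e-04). The BD arrays of Olfm3 lay close together, and the other subtype means of 7.52 to 8.79 covered the J readings. Cbln4 reached 7.99 in the W3 mean. Its W3 arrays read 8.71 and 7.28, the first above BD replicate 1.

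Hs3st4, which sulfates heparan sulfate chains, read 9.41 and 10.01 in BD arrays, against 7.01 and 7.26 in J arrays (2.57 ± 0.43, SE). Galnt15, of the family that starts O-linked glycans, read 6.74 and 7.76 in BD arrays, against 5.0 and 4.92 in J arrays (2.30 ± 0.29, SE), and the other subtype means were at most 5.37. Tafa1, a secreted chemokine-like protein, read 7.46 and 8.80 in BD arrays, against 6.24 and 5.74 in J arrays (2.14 ± 0.43, SE). All 3 were separated in the 4 arrays and called, with limma adjusted p of 0.00613, 7.82e-04 and 0.0249.

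Nts, the neuropeptide neurotensin, read 7.71 and 7.78 in BD arrays, against 5.32 and 5.73 in J arrays (2.22 ± 0.36, SE; limma adjusted p = 0.00447). Against the mean of the other 4 ganglion cell subtypes, BD was at 0.08 and J at -2.14. J was not the only low subtype, since the Cdh3 mean of 5.33 was below the J mean of 5.52. Of 16 tested neuropeptide genes, Cartpt among them, Nts alone was called, and the list had a median of 0.08. Lgals7, a galectin, read 8.96 and 8.71 in BD arrays, against 6.68 and 7.01 in J arrays (1.99 ± 0.23, SE). Adgrg6, an adhesion G protein-coupled receptor, read 6.73 and 8.05 in BD arrays, against 5.42 and 5.42 in J arrays (1.96 ± 0.34, SE). Both were higher in BD than in the mean of any other ganglion cell subtype, the highest of which were 7.39 and 5.42.

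Among intracellular proteins, Niban1, a stress-response protein, had the smallest error relative to its size among the 14 largest rises. It read 7.87 and 8.24 in BD arrays, against 5.20 and 5.56 in J arrays (2.67 ± 0.25, SE; limma adjusted p = 2.07e-05), and the other subtype means were at most 5.86. Crabp2, a cellular retinoic acid binding protein, read 7.79 and 6.90 in BD arrays, against 4.85 and 4.83 in J arrays (2.50 ± 0.40, SE; limma adjusted p = 0.00447). Both BD arrays of Crabp2 were above the other subtype means of 5.33 to 6.44, and J was below them.

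The zinc finger genes Bnc2, Tshz3 and Zfp248 completed the 14 largest rises. Bnc2 read 11.31 and 10.15 in BD arrays, against 8.62 and 7.80 in J arrays (2.53 ± 0.48, SE), and Isl2 cells were at 10.88. Tshz3 read 9.0 and 9.77 in BD arrays, against 6.92 and 7.19 in J arrays (2.33 ± 0.37, SE). Zfp248 read 7.87 and 7.43 in BD arrays, against 6.33 and 4.92 in J arrays (2.02 ± 0.42, SE). The other subtypes averaged 7.09 to 7.81 for Zfp248, near BD, so J was the low subtype, and the sign turned to -0.22 when the median over its probe sets was used.

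**Figure D3:**
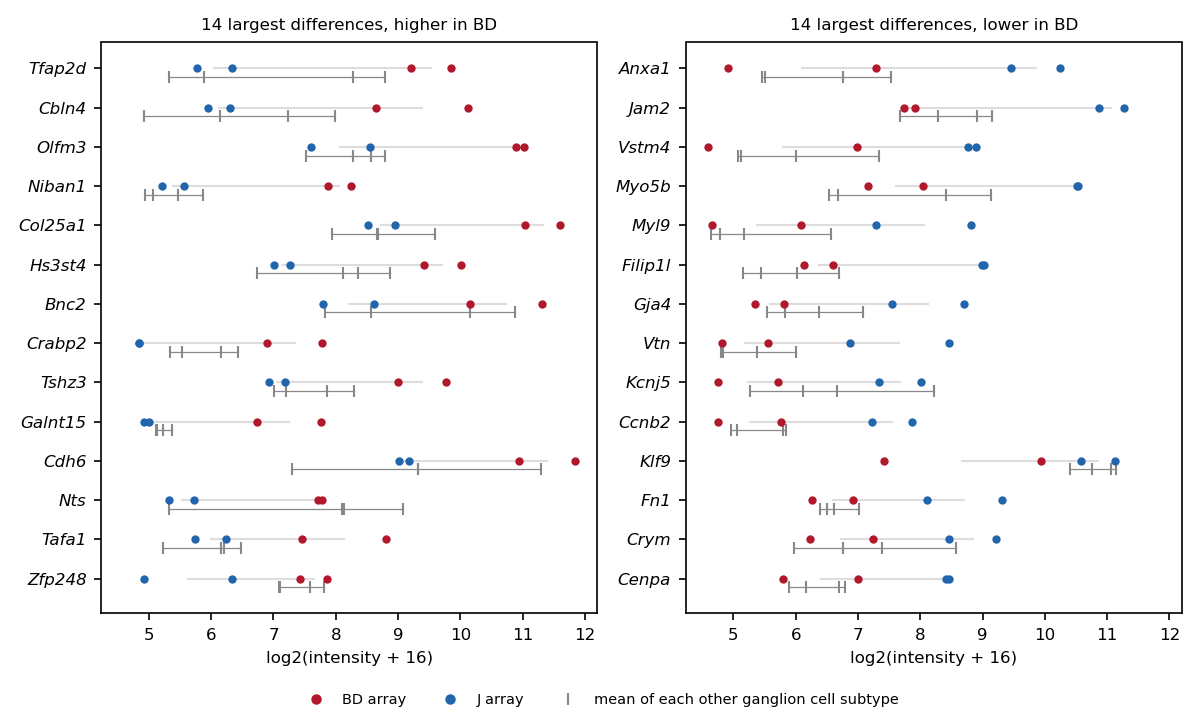
Levels (log2(intensity + 16)) of the 14 genes with the largest called rises (left) and falls (right) in BD against J cells. Red points are the 2 BD arrays, blue points the 2 J arrays, grey ticks the means of the other 4 ganglion cell subtypes and the pale line joins the BD and J means. In Nts and Zfp248 the BD arrays sit among the grey ticks, and in Col25a1 and Niban1 they sit to the right of all of them; on the right, Anxa1 and Vstm4 have BD arrays 2.39 and 2.38 apart.

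Jam2, the gene for the adhesion molecule that J cells are named after, fell to 7.92 and 7.75 in BD arrays, against 10.87 and 11.27 in J arrays, a difference of -3.24 ± 0.29 (SE; limma adjusted p = 2.07e-05). J arrays were high, and the other subtypes averaged between 7.68 and 9.15, so BD lay at their lower end. Of its 5 probe sets, the brightest gave this value, a second gave -2.21 and the remaining 3 gave -0.03 to 0.03. Jam2 was called in each fit that left out 1 of the 4 arrays, with values of -3.43 to -3.04. The other J markers had the same sign without being called: Cdh8, a cadherin, -1.85 ± 0.56 (SE; limma adjusted p = 0.15), Tbr1, a T-box factor, -1.27 ± 0.35 (adjusted p = 0.108), and Sorcs3, a sorting receptor, -0.64 ± 0.19 (adjusted p = 0.145). Tbr1 was higher still in W7 cells, whose mean was 8.75.

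Other large falls were in a motor protein, a channel subunit and a hormone-binding protein. Myo5b, a myosin motor for membrane traffic, read 8.05 and 7.16 in BD arrays, against 10.54 and 10.52 in J arrays (-2.92 ± 0.42, SE; limma adjusted p = 0.00223). Kcnj5, a G protein-gated potassium channel subunit, read 5.71 and 4.76 in BD arrays, against 7.34 and 8.02 in J arrays (-2.45 ± 0.33, SE; limma adjusted p = 0.00111). The second probe set of Kcnj5 gave -0.13, with a BD mean of 5.84 and a J mean of 5.97. Crym, a thyroid hormone-binding crystallin, read 7.24 and 6.22 in BD arrays, against 9.22 and 8.46 in J arrays (-2.11 ± 0.34, SE; limma adjusted p = 0.00447). J was high in all 3, and W3 cells exceeded J for Kcnj5 at 8.22. For Crym the Isl2 arrays, at 8.64 and 8.50, lay within the range of the J arrays.

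Klf9, a Krüppel-like factor that responds to hormones, read 9.93 and 7.42 in BD arrays, against 11.13 and 10.58 in J arrays (-2.18 ± 0.48, SE; limma adjusted p = 0.0424). The other subtypes averaged 10.41 to 11.13, so BD was the low subtype on this probe set, and its replicates were 2.52 apart. Of the 7 probe sets of Klf9, the next brightest gave -0.74, and those other than the brightest ranged from -1.78 to -0.0034. Rai14, an actin-binding ankyrin-repeat protein, read 6.08 and 5.94 in BD arrays, against 7.52 and 7.97 in J arrays (-1.74 ± 0.21, SE; limma adjusted p = 6.92e-04). The other ganglion cell subtype means for Rai14 were at most 5.86, while the J-line amacrine arrays read 8.83 and 8.89, above the J ganglion cell arrays. The sign of the Rai14 difference turned to 0.07 with the median over its probe sets.

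Anxa1, Vstm4, Myl9, Filip1l, Gja4, Vtn and Fn1 were the other large falls outside the cell cycle. Anxa1, a calcium-dependent membrane-binding annexin, read 7.30 and 4.91 in BD arrays, against 9.46 and 10.24 in J arrays (-3.75 ± 0.63, SE; limma adjusted p = 0.00656). Myl9, a smooth muscle myosin light chain and a mural marker, read 6.09 and 4.66 in BD arrays, against 7.29 and 8.82 in J arrays (-2.68 ± 0.48, SE; limma adjusted p = 0.00991). In both genes the J arrays were high and BD replicate 2 was the lowest of the 4. Cdh3 replicate 1 read 7.31 for Myl9, just above J replicate 1. Filip1l, a filamin-interacting protein, read 6.60 and 6.14 in BD arrays, against 8.98 and 9.02 in J arrays (-2.63 ± 0.40, SE; limma adjusted p = 0.0033). The J-line amacrine arrays were higher still for Filip1l, at 9.61 and 10.08.

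Vstm4, a membrane protein of the immunoglobulin superfamily, read 6.98 and 4.60 in BD arrays, against 8.76 and 8.90 in J arrays (-3.04 ± 0.65, SE). Gja4, a gap junction connexin of vessels, differed by -2.54 ± 0.44 (SE), with 5.81 and 5.35 in BD arrays, against 7.55 and 8.69 in J arrays. In both genes BD replicate 2 was the lowest array and J replicate 2 the highest. Vtn, the adhesive glycoprotein vitronectin, read 5.55 and 4.81 in BD arrays, against 6.87 and 8.46 in J arrays (-2.48 ± 0.50, SE). Fn1, the matrix protein fibronectin, read 6.93 and 6.25 in BD arrays, against 8.10 and 9.31 in J arrays (-2.12 ± 0.49, SE). In the order named, limma adjusted p was 0.032, 0.00746, 0.0239 and 0.0499, and in each the J mean was above that of every other ganglion cell subtype. Single arrays were less distinct. Cdh3 replicate 1 read 8.55, 7.88, 6.96 and 7.90 in the same order, above J replicate 1 for Gja4 and Vtn.

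Marker genes of mural cells, which wrap small vessels, moved with these genes. The mean level of 8 mural genes was 8.15 and 5.46 in BD arrays, against 8.95 and 9.57 in J arrays, and 5.22 to 9.05 in the other ganglion cell arrays. Pdgfrb, the receptor that defines mural cells, read 9.84 and 4.57 in BD arrays, against 10.91 and 10.98 in J arrays, and Kcnj8 read 8.18 and 4.46 in BD arrays, against 9.18 and 9.85 in J arrays. BD replicate 1 was thus nearer to the J arrays than to its own replicate. Of 7 tested mural genes only Myl9 was called, all 7 were below zero with a median of -2.68, and 4 more, Acta2, Cspg4, Rgs5 and Abcc9, had differences of -3.21 to -1.84. Col4a1, a collagen of vessel basement membranes, read 9.64 and 6.20 in BD arrays, against 10.71 and 11.66 in J arrays, and was not called (adjusted p = 0.0905). In sorted bulk samples, fewer cells of a type and less RNA per cell cannot be told apart.

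The same genes also varied within another subtype. Cdh3 replicate 1 had a mural list mean 1.95 above and a microglia list mean 3.01 above its replicate, and 45 of the 57 lower genes (78.9%) were higher in that array, against 46.0% of all tested genes. Of the 45 higher genes, 13 (28.9%) were higher there. Between the BD replicates, 48 of the 57 lower genes (84.2%) were higher in replicate 1, as were 9 of the 45 higher genes (20.0%), against 51.0% of all genes. BD replicate 2 was thus the more extreme BD array for most calls of either direction. Between the J replicates, 12 of the lower genes (21.1%) and 21 of the higher genes (46.7%) were higher in replicate 1. The share of all genes there was 53.6%. The genes were called on these same BD and J arrays, which by itself can favour such shares. The part of mural and microglial RNA in the differences was not tested.

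Microglia markers and most cell cycle genes of the list lay below zero without a call. The mean level of 9 microglia genes was 8.63 and 8.13 in BD arrays, against 9.23 and 10.01 in J arrays, and 5.93 to 9.26 in the other ganglion cell arrays. All 8 tested microglia markers were below zero, with a median of -1.45, and none was called. Of 9 cell cycle genes 7 were below zero and none was called, with a median of -1.18. Outside that list, 4 mitotic genes picked from the calls were lower, and the tested mitotic genes outside it were not counted. Ccnb2, a cyclin, and Cenpa, a centromere histone, differed by -2.29 ± 0.50 and -2.03 ± 0.45 (SE; limma adjusted p = 0.0409 and 0.0457). Pbk, a mitotic kinase, and Depdc1a, a mitotic protein, differed by -1.31 ± 0.29 and -1.53 ± 0.31 (SE; limma adjusted p = 0.0404 and 0.0234). Ccnb2 read 5.76 and 4.75 in BD arrays, against 7.23 and 7.86 in J arrays, and Cenpa read 7.01 and 5.80 in BD arrays, against 8.41 and 8.47 in J arrays. Other, dimmer probe sets of Cenpa gave -1.05 and 0.49. Endothelial markers, by contrast, had a median of -0.13 over 7 genes with none called. None of 5 rod photoreceptor genes was called, with a median of -1.09. Macrophage markers ran the other way from microglia markers: 3 of 4 tested were above zero, with a median of 0.57. F13a1, a macrophage transglutaminase, was the one called, higher in BD by 1.13 ± 0.24 (SE; limma adjusted p = 0.0304), and the Isl2 mean was higher still at 8.59.

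**Figure D4:**
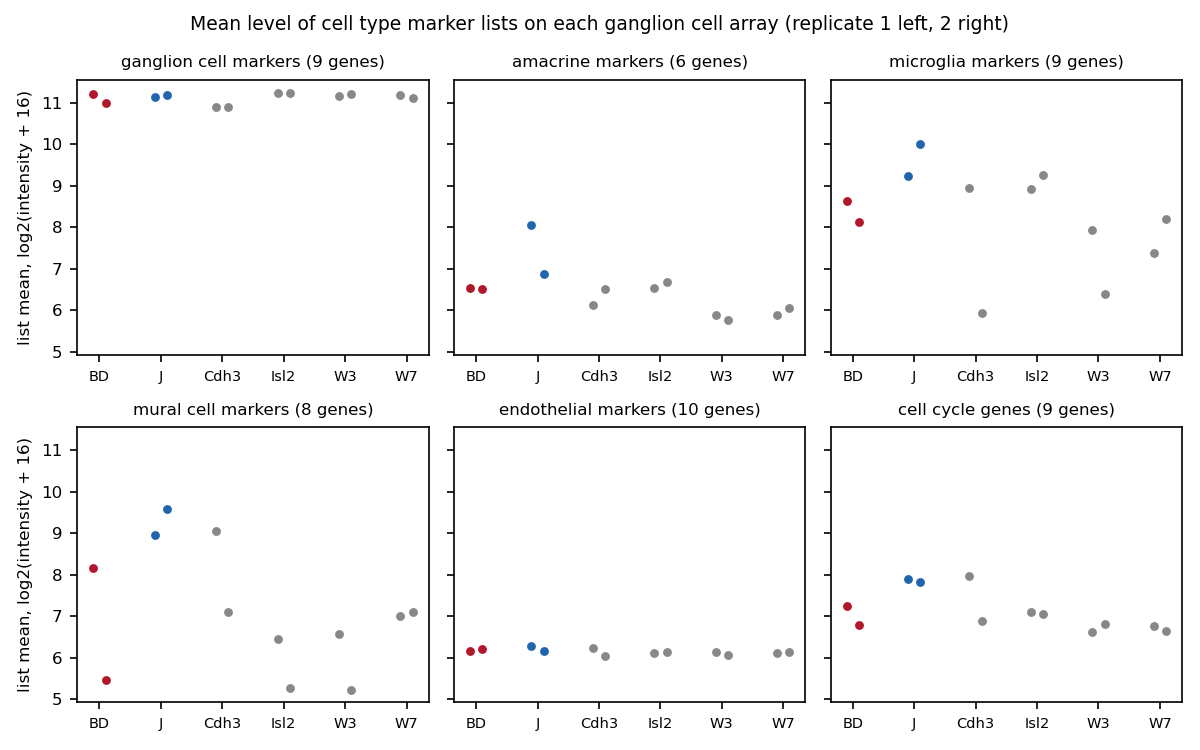
Mean level (log2(intensity + 16)) of 6 marker lists on each of the 12 ganglion cell arrays, BD in red, J in blue, other subtypes in grey, with replicate 1 left and replicate 2 right. Ganglion cell and endothelial markers are level across arrays, the mural list runs from 5.22 to 9.57, with 8.15 and 5.46 in BD and 8.95 and 9.57 in J, and the amacrine list is highest in J replicate 1 at 8.05.

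Receptor subunits for fast transmitters differed in a few named members. Of 10 nicotinic and muscarinic receptor genes tested, Chrnb4 was higher and Chrna6 lower, with a median of 0.04. Chrnb4 read 6.92 and 7.03 in BD arrays, against 5.89 and 5.74 in J arrays (1.16 ± 0.23, SE; limma adjusted p = 0.0224). Chrna6 read 8.75 and 8.12 in BD arrays, against 9.90 and 10.82 in J arrays (-1.93 ± 0.31, SE; limma adjusted p = 0.00469). Both subunits form nicotinic channels and moved in opposite directions. Chrna5 and Chrna3, which lie beside Chrnb4 in the genome, had differences of 1.24 ± 0.38 and 0.73 ± 0.22 (SE; adjusted p = 0.164 and 0.151).

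Of 16 GABA and glycine receptor genes, 2 were higher and none lower, with a median of -0.04. Gabra4 read 8.57 and 9.57 in BD arrays, against 7.37 and 6.93 in J arrays (1.91 ± 0.44, SE; limma adjusted p = 0.0493), and BD was above every other subtype mean, of which the highest was 7.47. Gabra3 read 7.38 and 8.24 in BD arrays, against 5.95 and 6.73 in J arrays (1.47 ± 0.31, SE; limma adjusted p = 0.0307), within the range of the other subtypes. Both encode alpha subunits of GABA-A receptors. No call fell among 19 listed glutamate receptor genes, 25 listed potassium channel genes or 20 listed sodium and calcium channel genes, with medians of 0.10, -0.13 and -0.09. The potassium channel list does not hold the inward rectifier genes Kcnj5, described above, and Kcnj10, both called lower, the second at -1.84 ± 0.33 (SE; limma adjusted p = 0.011).

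Guidance and recognition molecules gave single calls within large families. Sema3a, a secreted repellent of axons, read 9.96 and 10.43 in BD arrays, against 8.66 and 8.05 in J arrays (1.84 ± 0.36, SE; limma adjusted p = 0.0224), 1 call among 26 semaphorin, plexin and neuropilin genes. Efnb2, a membrane-bound ephrin, read 9.34 and 10.77 in BD arrays, against 8.51 and 8.24 in J arrays (1.68 ± 0.35, SE; limma adjusted p = 0.0306), 1 call among 17. Negr1, an adhesion molecule of the IgLON family, read 9.62 and 10.97 in BD arrays, against 8.41 and 8.77 in J arrays (1.71 ± 0.36, SE; limma adjusted p = 0.0307). With Jam2 it made up the calls among the 28 genes listed as recognition molecules of the immunoglobulin superfamily, a list without Vstm4. All 3 were separated, with BD replicate 2 the highest of the 4 arrays, and medians of the 3 families were 0.03, -0.01 and 0.13.

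Cdh6 was the sole call among 13 classical cadherins, whose median was -0.14, and Cbln4 among 11 neurexin, contactin-associated and cerebellin genes, whose median was 0.23. None of 14 Slit, Robo and netrin genes, 20 leucine-rich repeat adhesion genes, 8 delta protocadherins or 7 teneurins and latrophilins was called. Among developmental transcription factors, Sox6, an HMG-box factor, was higher (1.22 ± 0.24, SE) and Irx6, an Iroquois homeobox factor, lower (-1.40 ± 0.29, SE; limma adjusted p = 0.0224 and 0.0306). For Sox6, BD minus the other 4 ganglion cell subtypes was 0.02 and J minus the others was -1.20. The Cdh3 mean for Sox6, 8.49, was near the J mean of 8.43. None of 10 POU4 and LIM homeobox genes or 8 T-box genes was called.

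The BD and J sides of the differences were read against the mean of the other 4 ganglion cell subtypes, in comparisons that share the BD or the J arrays with the one above. BD differed from that mean in 94 genes (0.674%) and J in 323 (2.32%). The 45 higher genes had a median of 1.32 in BD minus the others and of -0.44 in J minus the others. The 57 lower genes had a median of -0.23 in BD minus the others and of 1.25 in J minus the others. BD had the highest mean of the 6 ganglion cell subtypes in 32 of the 45 higher genes, and J in 41 of the 57 lower genes. The genes were called for a BD and J difference in these same arrays, which by itself favours such ranks. The share over all tested genes was not counted, so these counts do not show that a gene is particular to BD or J. BD was not the highest in Ppp1r1c, Gfi1, Nts and Zfp248. For these, J minus the others was -1.70, -1.76, -2.14 and -1.77. The W7 mean of 6.15 for Gfi1 and the Cdh3 mean of 5.33 for Nts were below the J means. For Klf9, Chrna6 and Caln1, BD minus the others was -2.16, -1.46 and -1.76.

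The calls that needed neither BD replicate 2 nor any other single array were few. Without BD replicate 2, the genes kept were Bnc2, Cbln4, Crabp2, Crhbp, Galnt15, Gfi1, Lgals7, Niban1, Olfm3 and Tfap2d on the higher side and Dsc2, Jam2, Kcnj5, Rai14 and Rbp7 on the lower side. With the exception of Bnc2, these 14 were called in all 4 fits that left out a single array. Crhbp, a binding protein of corticotropin-releasing hormone, read 10.28 and 10.17 in BD arrays, against 8.81 and 8.88 in J arrays (1.38 ± 0.20, SE; limma adjusted p = 0.0018). Gfi1, a zinc finger repressor, read 8.17 and 8.17 in BD arrays, against 6.24 and 6.51 in J arrays (1.79 ± 0.25, SE; limma adjusted p = 0.00146). Rbp7, a retinol-binding protein, read 4.84 and 5.01 in BD arrays, against 6.69 and 6.86 in J arrays (-1.85 ± 0.24, SE; limma adjusted p = 7.82e-04), and Dsc2, a desmosomal cadherin, read 4.82 and 4.97 in BD arrays, against 6.66 and 6.71 in J arrays (-1.79 ± 0.28, SE; limma adjusted p = 0.00399). In all 4 genes the replicates lay within 0.28 of each other. Crhbp, Gfi1, Rbp7, Dsc2, Ppp1r1c, Caln1, Pbk, Depdc1a and Kcnj10 were chosen after their values were seen.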

How the data were processed

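RNA of sorted retinal neurons was hybridised to single-colour Affymetrix arrays, 2 per subtype, per the labels. The authors deposited a table of linear intensity values, many of them exactly 1 at the low end. How those were scaled is not given in the sources used here. The number of arrays limits the precision. From the deposited intensity values, log2(intensity + 16) was computed and quantile normalized over 26 arrays. Of 45037 probe sets, 9160 without and 932 with several symbols were left out. The brightest probe set stood for each of 18193 genes, and 13951 genes with at least 2 of 26 arrays above log2 6.14 were tested. In R 4.3.3 and limma 3.58.1, 13 subtype means were fitted (13 residual and 4.59 prior degrees of freedom), and Benjamini-Hochberg adjusted p-values were taken over all tested genes.

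The rule for genes named was the 14 largest called rises and falls, 8 per side that stood farthest above the other ganglion cell subtypes, the markers, and members of 45 lists by size. Members and lists were chosen with earlier results of these data known. Replicate numbers mark no shared litter, and with 2 numbers no pairing could be shown. On simulated data with 50 changed genes of each size, differences of 1, 1.5, 2 and 3 log2 units were recovered in 44%, 84%, 96% and 100%, with 4 false calls. The simulated noise of a gene had the same pooled variance in every array. The wider spread of the BD replicates was not simulated, so these rates may not hold for BD against J. The 17 alternatives covered scaling, arrays fitted, pseudocount, filter, probe sets, variances, weights, a replicate block and each array left out.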

Additional observations from a re-analysis of the deposited data

How the results depend on the processing

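The counts moved with the arrays and settings used. Against 45 higher and 57 lower genes, the 12 ganglion cell arrays alone gave 11 and 6, the 4 BD and J arrays alone gave 0 and 0 (738 genes at an unadjusted p under 0.05 in limma), array weights gave 9 and 3, and a pseudocount of 1 gave 24 and 24. Shifting the arrays to one median gave 44 and 37, a split of 54.3% higher against 44.1%, the median over probe sets gave 33 and 36, and the filter at the 75th percentile gave 41 and 38. Leaving out 1 array at a time gave 10 to 394 higher and 5 to 469 lower genes. Of the 102 calls, none was kept in every alternative, since the 4 arrays alone gave none; 87 were lost without BD replicate 2 and 2 without BD replicate 1. A replicate block gave 49 and 54, with a correlation of 0.27 across genes between the deviations of same-numbered BD and J arrays, and with that block Cartpt was called (adjusted p = 0.016), as it was with a pseudocount of 64 (0.0159). The alternatives not named here moved the counts by less than 1.5 times. With the median over probe sets the sign turned for Arpp21 (-0.33), Zfp248 (-0.22), Dbndd2 (0.24), Hs6st2 (0.44), Kbtbd11 (0.12), Npnt (0.0086) and Rai14 (0.0672), and for Zfp248 in J minus the other ganglion cells (0.18). Il17rd turned to 0.0442 with the 12 ganglion cell arrays, and Kcnj5 in J minus the others to -0.11 with a pseudocount of 1. A second probe set had the same sign in 48 of the 62 called genes that have one. The causes were not tested.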

Other observations

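A set of 4 called genes whose products handle retinoids was picked after their values were seen, and retinoid genes as a group were neither counted nor tested. Aldh1a3, an enzyme that makes retinoic acid, read 6.58 and 7.20 in BD arrays, against 5.33 and 4.91 in J arrays (1.77 ± 0.25, SE; limma adjusted p = 0.00146), and the means of the other ganglion cell subtypes were at most 5.78. Crabp2, which binds retinoic acid, was higher in BD (2.50 ± 0.40, SE), and Rbp7, which binds retinol, was lower (-1.85 ± 0.24, SE). Stra6l, a relative of the retinol receptor gene Stra6, read 5.39 and 5.32 in BD arrays, against 6.73 and 6.86 in J arrays (-1.43 ± 0.24, SE; limma adjusted p = 0.00613). The groups did not overlap in any of the 4 genes, as in every called gene.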
